A study of Mus musculus with 4 samples.

Results

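RNA of 7 genes was followed: Spp1, which encodes the secreted matrix protein osteopontin, the galectin genes Lgals1, Lgals3 and Lgals9, and Gpnmb, Trem2 and Apoe, which mark macrophages that remodel scarred or lipid-loaded tissue. They were found by exact match of the gene name, and all 7 were among the 24497 gene rows of the table. Expression was measured by RNA sequencing in cultured mouse leukaemia cells of the acute myeloid type, driven by NRAS together with AE9a, a truncated splice variant of AML1-ETO. They were derived from haematopoietic stem cells of the bone marrow, taken from wild-type mice (WT) or from Tet2-/- mice lacking exon 3 of Tet2 (Tet2 KO), with 2 libraries in each group. Both groups carried NRAS and AE9a and grew in RPMI medium containing SCF (50 ng/ml), IL-3 (10 ng/ml) and IL-6 (10 ng/ml) under selection with puromycin (2 µg/ml) and G418 (1 mg/ml), with no other treatment. The labels give no age, strain or clone number, and whether replicates stem from different cultures or mice is not stated. Every p-value below thus rests on a library-to-library spread that may be technical.

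Osteopontin is an acidic glycoprotein of bone and inflamed tissue that is bound by integrins and by CD44. Galectins are lectins that bind beta-galactosides on cell-surface and lysosomal glycoproteins, and galectin-1, galectin-3 and galectin-9 are known to restrain T cells. Trem2 is a lipid-sensing receptor that signals through the adaptor Tyrobp and has apolipoprotein E, the product of Apoe, among its ligands. Gpnmb is a transmembrane glycoprotein whose gene is a target of the MiT-TFE transcription factors. In liver, lung, fat and brain, macrophages with Spp1, Trem2, Gpnmb and Apoe are known from sites of fibrosis, lipid load or degeneration.

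Values are TPM, a share of a fixed total per library, which is scaled for transcript length and so lets levels of different genes be compared, but keeps no sequencing depth. Library depth is unknown, so 0 says only how a gene was listed. Of the 24497 genes, 11452 had 2 or more libraries at 1 TPM or above and were tested with limma, and all 7 members passed this filter. With a threshold of 0.05 on the adjusted p, 54.4% of them were called higher in Tet2 KO and 19.5% lower, and their median log2 fold change was 0.23. After median-ratio scaling, which brings that median to 0.00, 33.3% were higher and 34.4% lower. Changes on both scales are given below, and the second is called the centred scale. The ERCC spike-in RNAs took 4.38 to 4.43% of the WT and 5.33 to 5.48% of the Tet2 KO total. Tet2 itself read 16.62 and 16.98 TPM in the WT pair, against 16.98 and 16.95 TPM in the Tet2 KO pair, a gene-level value that does not separate exon 3 and so does not check the deletion.

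The cells had the markers of the labelled cell type and nearly none of lymphocytes or stroma. Of 10 myeloid leukaemia markers 9 passed the filter, among them Ptprc, Spi1, Mpo, Itgam and Cd34, and Flt3 did not. Of these 9, 7 were called higher and 2 lower, beside 54.4% and 19.5% of all genes. On the centred scale 5 were higher and 3 lower, beside 33.3% and 34.4%. Kit, the receptor gene for SCF, was far apart, at 11.8 ± 0.255 TPM in WT and 205 ± 5.81 TPM in Tet2 KO, 17.4-fold higher (limma adjusted p = 7.49e-18). Mpo, the gene of a granule enzyme of early myeloid cells, rose from 91.8 ± 0.389 to 157 ± 5.7 TPM and Itgam, which encodes CD11b of mature myeloid cells, fell from 383 ± 3.82 to 224 ± 4.72 TPM (limma adjusted p = 4.49e-10 and 4.06e-11). Csf3r rose from 20.3 ± 0.318 to 31.9 ± 2 TPM (limma adjusted p = 2.57e-07). Spi1, the second marker called lower, fell from 300 ± 7 to 224 ± 5.99 TPM (limma adjusted p = 1.18e-07). The values of Csf3r and Spi1 were picked after they had been seen. Cd34 was at 357 ± 0.948 and 381 ± 1.82 TPM (limma adjusted p = 0.0367), and at -0.16 on the centred scale (limma adjusted p = 0.00412). The 8 lymphocyte markers summed to between 0.14 and 0.23 TPM in each library, with Cd3e and Ncr1 at 0 in all. The 11 markers of stroma and bone, where Spp1 is also made, summed to 3.74 and 4.03 TPM in WT and to 8.11 and 8.24 TPM in Tet2 KO. Nearly all of that was Runx2, and Cxcl12, Alpl and Lum were at 0. Of 5 endothelial markers 1 passed the filter, Vwf, with 39.8 and 40 TPM in the WT against 57.5 and 65.4 TPM in the Tet2 KO pair, while Emcn was at 0. Of the 15 markers of mature macrophages 6 passed the filter, and the sum was 602.1 and 609.6 TPM in WT and 522.9 and 544.4 TPM in Tet2 KO. Of these 6, 2 were called higher and 3 lower, and 1 and 5 on the centred scale. Mrc1 fell the most, from 25.8 ± 0.375 to 6.28 ± 0.587 TPM (limma adjusted p = 4.64e-12). Fcgr1 rose the most, from 2.78 ± 0.099 to 5.19 ± 0.0283 TPM (limma adjusted p = 1.16e-05). Csf1r, the receptor gene for macrophage colony-stimulating factor, fell from 100 ± 0.863 to 41.4 ± 2.84 TPM (limma adjusted p = 1.01e-11), while Adgre1, the F4/80 gene, differed little, at 302 ± 0.849 and 322 ± 6.41 TPM (limma adjusted p = 0.041). That call turned over on the centred scale (-0.15, limma adjusted p = 0.00418) and was lost without WT replicate 1, WT replicate 2 or Tet2 KO replicate 2 (limma adjusted p = 0.219, 0.187 and 0.0965). Among the genes of resident macrophages, the complement gene C1qa was at 0 in all libraries. The complement genes C1qb and C1qc, and also Cd163, Timd4, Vsig4 and Marco, were under 1 TPM. The part of these markers in the results below was not tested. In bulk RNA, fewer cells of one kind and less RNA in each cell cannot be told apart.

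The members lie on 7 chromosomes (mm10, GENCODE M21 gene bounds). Spp1 is on chromosome 5 (104435118 to 104441050, plus strand), Lgals1 on chromosome 15 (78926725 to 78930465, plus), Lgals3 on chromosome 14 (47367751 to 47386160, plus) and Lgals9 on chromosome 11 (78962974 to 78984946, minus). Gpnmb is on chromosome 6 (49036546 to 49070929, plus), Trem2 on chromosome 17 (48346401 to 48354147, plus) and Apoe on chromosome 7 (19696109 to 19699188, minus). Only Spp1 overlaps another annotated gene, the unconfirmed transcript Gm42793 on the same strand.

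The promoter table from RefSeq (GRCm38.p6, the build of mm10) matched 6 of the 7 members. Shown here are the 250 bases before the start of 4 of them, chosen because their RNA spans the pattern: Trem2 had the lowest and Apoe the highest relative level in Tet2 KO, Spp1 the highest level and Gpnmb the smallest difference. Where a gene has several listed starts, the one nearest the GENCODE gene start was taken. The windows are chr17:48346151-48346400 for Trem2, chr5:104434861-104435110 for Spp1, chr6:49036268-49036517 for Gpnmb and chr7:19699189-19699438 for Apoe, each printed 5′ to 3′ on the gene's own strand. Capitals mark matches, on either strand, to 4 short motifs that were searched. These were TGANTCA (a loose form of the AP-1 site, with any middle base), CACGTG (the E-box of the MiT-TFE and MYC class), GGAAGT (ETS factors) and GGGCGG (SP1).
Trem2: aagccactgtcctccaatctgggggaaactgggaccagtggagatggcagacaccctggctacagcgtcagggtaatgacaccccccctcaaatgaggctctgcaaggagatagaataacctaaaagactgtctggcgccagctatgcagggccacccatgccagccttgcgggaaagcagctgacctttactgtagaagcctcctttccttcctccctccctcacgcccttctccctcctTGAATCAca
Spp1: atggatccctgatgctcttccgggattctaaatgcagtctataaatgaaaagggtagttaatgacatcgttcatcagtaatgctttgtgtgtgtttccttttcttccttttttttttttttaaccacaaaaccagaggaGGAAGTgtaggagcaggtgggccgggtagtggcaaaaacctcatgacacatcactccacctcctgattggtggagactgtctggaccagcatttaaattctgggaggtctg
Gpnmb: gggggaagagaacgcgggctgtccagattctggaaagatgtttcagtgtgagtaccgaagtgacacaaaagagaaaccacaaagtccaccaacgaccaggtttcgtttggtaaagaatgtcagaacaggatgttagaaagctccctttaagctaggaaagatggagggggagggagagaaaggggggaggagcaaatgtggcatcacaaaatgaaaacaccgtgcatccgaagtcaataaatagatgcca
Apoe: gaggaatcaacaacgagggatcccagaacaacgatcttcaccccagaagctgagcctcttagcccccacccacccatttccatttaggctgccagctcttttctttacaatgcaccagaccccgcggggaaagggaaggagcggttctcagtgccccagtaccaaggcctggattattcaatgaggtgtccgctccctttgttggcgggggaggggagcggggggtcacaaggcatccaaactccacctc

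Trem2 held 1 match to TGANTCA, which starts 9 bases before the gene start, and 6.75% of all 32851 promoter windows of the same length hold that motif. The match reads TGAATCA, with A in the middle where the strict AP-1 site has C or G, so it fits the loose form only. Spp1 held 1 match to GGAAGT, 111 bases before its start, a motif in 19.7% of windows. Gpnmb and Apoe held none of the 4, including CACGTG, which is in 6.02% of windows. Of the windows not printed, Lgals9 held 1 GGAAGT match and Lgals3 held 1 GGGCGG match, a motif in 32.7% of windows. The Lgals3 window belongs to a start 6109 bases inside the GENCODE gene and covers 47 exon bases, and the Lgals9 window covers 22 exon bases. No 2 members shared a motif except Spp1 and Lgals9. The matches are descriptions of these letters and not evidence of binding. CpG dinucleotides, the substrate of TET enzymes when methylated, numbered 4 in the Trem2, 3 in the Spp1, 7 in the Gpnmb, 8 in the Apoe, 3 in the Lgals9 and 13 in the Lgals3 window, against a median of 6 over all windows (quartiles 2 and 16).

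The 7 genes were selected on their TPM in this same comparison of Tet2 KO with WT, whose results were already known, so their differences are given as a description, with no test. Of the members, 5 were lower and 2 higher in Tet2 KO, with no overlap between the groups for any of them. Among all tested genes 24.4% were lower and 62.4% higher without overlap, and nothing is read from the members' count. The median log2 fold change of the members was -0.52, and -0.76 on the centred scale. Trem2 and Lgals3 differed the most downward, Spp1 and Lgals1 less, and Gpnmb little. Lgals9 and Apoe were higher.

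**Figure D1:**
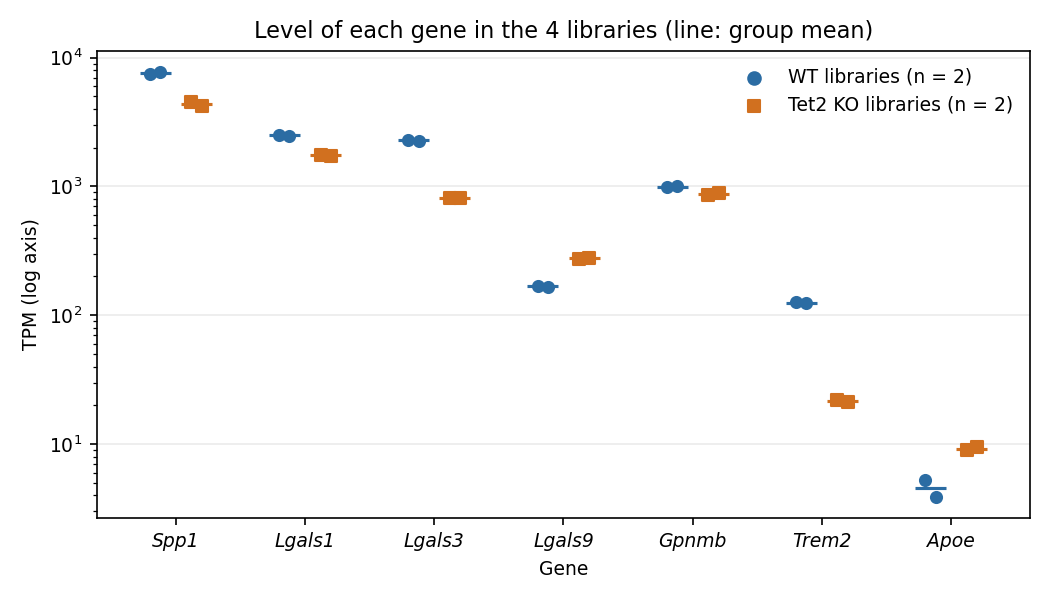
TPM (log axis) of each of the 7 genes in the 2 WT (circles) and 2 Tet2 KO libraries (squares), with lines at the group means. The libraries of a group lie close together, Trem2 drops from about 125 to 21.7 TPM, and Lgals9 and Apoe are the genes with the Tet2 KO libraries on top.

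Spp1 was among the most abundant RNAs of these cells. It read 7457 and 7739 TPM in the WT pair, against 4560 and 4194 TPM in the Tet2 KO pair. It ranked 10th in both WT libraries and 15th and 18th in the Tet2 KO libraries, counting from the highest of all genes. The mean was 7598 ± 200 TPM in WT and 4377 ± 258 TPM in Tet2 KO (SD, n = 2 libraries each), 1.74-fold lower. The log2 fold change was -0.80 (SE 0.0398) on the log2(TPM + 1) scale used throughout, -1.04 on the centred scale and -0.48 after quantile normalization. The other genes of the SIBLING family, small integrin-binding glycoproteins of bone and tooth (Ibsp, Dmp1, Mepe and Dspp), were at 0 in all 4 libraries.

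Among the receptors of osteopontin, Cd44 fell and 6 of the 7 tested integrin chains were called higher. The list of the osteopontin family and receptors held 13 genes, of which 8 were tested. Of these 6 rose and 2 fell (median log2 fold change 0.33), beside 54.4% and 19.5% of all genes (median 0.23). On the centred scale 3 rose and 2 fell, with a median of 0.09, beside 33.3% and 34.4% of all genes. The second gene that fell was Itga5, the alpha chain of the fibronectin receptor, at 58 ± 1.11 and 45.9 ± 4.02 TPM (limma adjusted p = 1.69e-04, named after its values had been seen). Cd44, the gene of the hyaluronan receptor that also binds osteopontin, read 163 and 170 TPM in the WT pair, against 64 and 60.5 TPM in the Tet2 KO pair. It fell by 1.41 on the log2 scale (limma adjusted p = 4.36e-13). Itgb3, the beta chain of the vitronectin receptor that binds the RGD site of osteopontin, rose from 88.7 ± 1.01 to 220 ± 9.58 TPM, 2.49-fold (limma adjusted p = 5.09e-13). Its partner chain Itgav moved less, from 18.9 ± 1.05 to 24.6 ± 0.0141 TPM, and that call was lost on the centred scale (log2 fold change 0.13, limma adjusted p = 0.0681).

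Among the integrin chains that bind osteopontin outside the RGD site, Itga4 was higher on both scales. Itga4, the alpha chain of VLA-4, rose from 26.5 ± 2.08 to 56.6 ± 1.57 TPM (limma adjusted p = 2.68e-10), while Itga9 was at 0.315 ± 0.0354 and 1.08 ± 0.0354 TPM, a low level. Itga9 met the filter only through Tet2 KO, where it was high, and with no filter its limma adjusted p was 7.04e-04. Such genes numbered 4 of the 104 tested in the 7 lists of partner genes (Itga9, Treml1, Acp5 and Mmp14), and they had to differ to enter the counts of their lists. Their beta chain Itgb1 was called higher on the deposited scale, at 163 ± 5.64 and 184 ± 0.594 TPM (limma adjusted p = 0.00258). On the centred scale it was not called and had the opposite sign (-0.08, limma adjusted p = 0.112), and without WT replicate 1 it was not called (0.13, limma adjusted p = 0.0897). Within each library, Spp1 RNA was 45.4 to 45.7 times Cd44 RNA in WT and 69.4 to 71.3 times in Tet2 KO. A common factor per library leaves this ratio as it is, so that Cd44 differed by more than Spp1 did on the deposited, centred and spike-in scales.

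The galectin genes split. Lgals1, which encodes galectin-1, a small dimeric galectin, read 2521 and 2474 TPM in the WT pair, against 1770 and 1719 TPM in the Tet2 KO pair, 1.43-fold lower (log2 fold change -0.52, SE 0.0301). Lgals3, whose product galectin-3 joins a lectin domain to a tail that lets it form oligomers, read 2288 and 2270 TPM in the WT pair, against 813 and 820 TPM in the Tet2 KO pair, 2.79-fold lower (-1.48, SE 0.0307). Lgals9, which encodes the tandem-repeat galectin-9, read 168 and 167 TPM in the WT pair, against 275 and 279 TPM in the Tet2 KO pair, 1.65-fold higher (0.72, SE 0.0406). On the centred scale these values became -0.76, -1.73 and 0.47, each in the same direction.

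These shifts changed the make-up of galectin RNA. The 6 galectin and galectin-like genes above 0 in every library (Lgals1, Lgals3, Lgals9, Lgals8, Lgals4 and Lgalsl) summed to 5042 and 4979 TPM in WT and to 2975 and 2939 TPM in Tet2 KO. Lgals1 and Lgals3 were nearly level in WT, with 49.7 to 50% and 45.4 to 45.6% of the sum. In Tet2 KO Lgals1 took 58.5 to 59.5% and Lgals3 27.3 to 27.9%. The share of Lgals9 was 3.34 and 3.35% in WT and 9.23 and 9.49% in Tet2 KO. Lgals3 RNA was thus 13.6 times Lgals9 RNA in both WT libraries and 2.94 to 2.96 times in Tet2 KO, a ratio that a common factor per library leaves as it is.

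**Figure D2:**
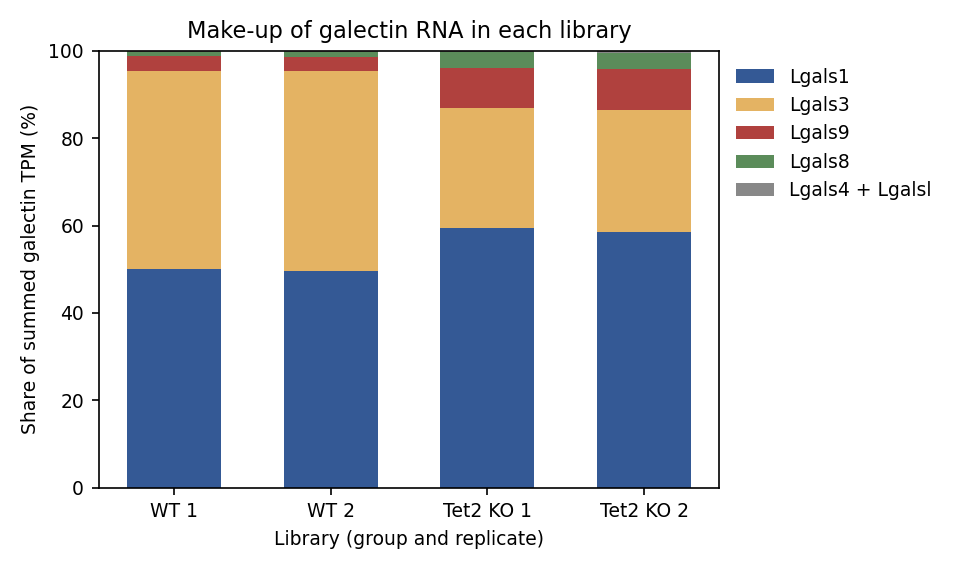
Share (%) of each gene in the summed TPM of 6 galectin and galectin-like genes, 1 bar per library. Lgals3 takes 45.4 to 45.6% in WT and 27.3 to 27.9% in Tet2 KO, and the shares of Lgals9 and Lgals8 are larger in Tet2 KO.

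Of the other galectins and galectin counter-receptors, 16 genes were listed and 9 tested. Of these 5 rose and 0 fell (median log2 fold change 0.19), beside 54.4% and 19.5% of all genes (median 0.23). Centred, those shares of all genes were 33.3% and 34.4%. Among the 4 of the list that passed in neither direction, Lamp1 and Lamp2, the lysosomal membrane glycoproteins, fell on the centred scale. There the list stood at 3 higher and 2 lower (median -0.01). Both were also called lower without Tet2 KO replicate 1 (limma adjusted p = 0.0315 and 0.0163), but Lamp1 rose after quantile normalization (0.15, limma adjusted p = 0.00532). Lgals8, which encodes another tandem-repeat galectin, read 53.5 and 56.8 TPM in the WT pair, against 107 and 109 TPM in the Tet2 KO pair, a rise of 0.95 on the log2 scale (limma adjusted p = 1.02e-10). Havcr2, which encodes TIM-3, a receptor of galectin-9, rose from 18.2 ± 1.02 to 45.1 ± 2.35 TPM, 2.48-fold (limma adjusted p = 4.70e-11). Spn, the sialomucin gene CD43, which galectin-1 binds, rose from 59 ± 0.474 to 91.5 ± 1.17 TPM (limma adjusted p = 1.16e-08). These 3 rises were kept on the centred scale (0.71, 1.03 and 0.38).

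Further binding partners were called higher on the deposited scale and not on the centred one. Ptprc, the CD45 gene, was at 184 ± 11.3 and 219 ± 14.6 TPM (limma adjusted p = 0.00149) and at a log2 fold change of 0.00 on the centred scale (limma adjusted p = 0.971). Lgals3bp, which encodes a secreted galectin-3 binding glycoprotein, was at 133 ± 3.91 and 152 ± 4.66 TPM (limma adjusted p = 0.00157), and at -0.06 on the centred scale (limma adjusted p = 0.282). Lag3, a T cell receptor bound by galectin-3, was under 1 TPM in every library, and Lgals2, Lgals6, Lgals12 and Grifin were at 0. Lgals4 was at 8.13 ± 0.431 and 8.89 ± 1.21 TPM (limma adjusted p = 0.311), and was called without Tet2 KO replicate 1 (0.24, limma adjusted p = 0.0438). It has a close mouse copy in Lgals6, so its value is uncertain.

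Galectin binding depends on the glycans that cells build, and the genes of those enzymes were called higher more often on the deposited than on the centred scale. Of 21 genes of glycan branching, galactose addition and capping, 20 were tested, and 15 rose and 1 fell (median 0.30, against 0.23 for all genes, of which 54.4% rose). Most act on N-glycans, and this is called the N-glycan list below, but some, such as St3gal1, act on O-glycans. Centred, the list stood at 9 that rose and 3 that fell, with a median of 0.05, beside 33.3% and 34.4% of all genes. Mgat5, which adds the branch that galectin-3 favours, rose from 22.5 ± 0.488 to 36 ± 2.94 TPM (limma adjusted p = 2.03e-07). St6gal1, whose alpha-2,6 sialic acid blocks galectin-1 binding, rose from 2.3 ± 0.247 to 8.45 ± 0.354 TPM, 3.67-fold (limma adjusted p = 1.56e-09). St3gal1, which caps core O-glycans with sialic acid, rose from 18.2 ± 0.7 to 51 ± 2.77 TPM and Fut8, the core fucosyltransferase gene, from 106 ± 5.85 to 323 ± 1.44 TPM (limma adjusted p = 6.71e-12 and 3.59e-14). Each of these 4 also rose on the centred scale.

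Trem2 had the largest difference of the 7 members. It read 126 and 124 TPM in the WT pair, against 22.2 and 21.2 TPM in the Tet2 KO pair, 5.76-fold lower, and the groups stood far apart. The log2 fold change was -2.47 (SE 0.0544), and -2.71 on the centred scale. By rank among all genes it went from 1069 and 1096 in WT to 5779 and 5992 in Tet2 KO. Among all tested genes 3.91% were at least 2-fold lower without overlap. Of the members 2 were, Trem2 and Lgals3. At least 2-fold higher without overlap were 9.54% of tested genes and 1 member, Apoe, and nothing is read from these counts.

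The adaptor of Trem2 differed far less than the receptor. Tyrobp, which encodes DAP12, read 1747 and 1744 TPM in the WT pair, against 1422 and 1448 TPM in the Tet2 KO pair, and fell by 0.28 on the log2 scale (limma adjusted p = 3.65e-07). Its RNA was 13.9 to 14 times that of Trem2 in WT and 64.2 to 68.1 times in Tet2 KO. Syk, the kinase gene downstream of DAP12, fell from 106 ± 0.0495 to 88.4 ± 1.42 TPM (limma adjusted p = 1.16e-04). Hcst, which encodes the second adaptor DAP10, read 15.1 and 15.6 TPM in the WT pair, against 15.3 and 21.6 TPM in the Tet2 KO pair, with overlap, and was not called (limma adjusted p = 0.269). It was called without Tet2 KO replicate 1 (limma adjusted p = 1.89e-04), and over all alternatives its adjusted p ranged from 1.89e-04 to 0.983.

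In the list of the TREM family and Trem2 signalling, 14 of 15 genes were tested. Of these 6 rose and 5 fell (median 0.04), beside 54.4% and 19.5% of all genes. Centred, the list stood at 3 that rose and 7 that fell, with a median of -0.20, beside 33.3% and 34.4%. Most of the family lies beside Trem2 on chromosome 17. Trem1, a receptor gene that amplifies inflammatory signals through the same adaptor, fell from 64.7 ± 0.544 to 28.8 ± 0.573 TPM (limma adjusted p = 2.40e-11), and Trem3 fell from 42.3 ± 1.01 to 22.2 ± 1.19 TPM (limma adjusted p = 1.75e-09). Treml2 went the other way, from 57.6 ± 0.255 to 97.7 ± 3.83 TPM (limma adjusted p = 1.80e-09). All 3 kept their direction and call on the centred scale.

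Within 100 kb of Trem2, 8 other protein-coding genes were tested, of which 4 fell and 2 rose, beside 19.5% and 54.4% of all genes. On the centred scale Treml4 (-0.36, limma adjusted p = 0.0321) and Oard1 were also called lower. There only Treml2 was called higher, beside 34.4% of all genes lower and 33.3% higher. Treml1, the nearest at 5769 bases, is a gene of platelets and megakaryocytes, and was at 3.46 ± 0.0707 and 0.445 ± 0.00707 TPM. It met the filter only through WT, where it was high, and with no filter its limma adjusted p was 5.93e-05. B430306N03Rik fell by 0.58 on the log2 scale (limma adjusted p = 4.52e-07). On the other side of Trem2, Nfya was 1.19-fold higher (limma adjusted p = 8.58e-04), with a log2 fold change of 0.01 on the centred scale, and Oard1 was not called (0.06, limma adjusted p = 0.403), but was called lower on the centred scale (-0.18, limma adjusted p = 0.0145). These neighbours were named after their values had been seen. Over all 7 members, 29 neighbours within 100 kb were tested, of which 13 rose and 7 fell, beside 54.4% and 19.5% of all genes tested. On the centred scale the balance turned over, beside 33.3% and 34.4% of all genes. There only H1f0, Relb, Socs4, Ksr1, Igf2bp3 and Treml2 were called higher. The 7 falls kept their call, and Pkd2, Gga1, Nol12, Fbxo34, Treml4, Oard1, Clasrp and Clptm1 were called lower as well. Those not named above were named after their values had been seen. Of the 29, 2 met the filter through only 1 group and had to differ to be counted. These were Treml1 and Igf2bp3, a neighbour of Gpnmb at 0.585 TPM in WT and 3.89 TPM in Tet2 KO (named after its values had been seen).

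**Figure D3:**
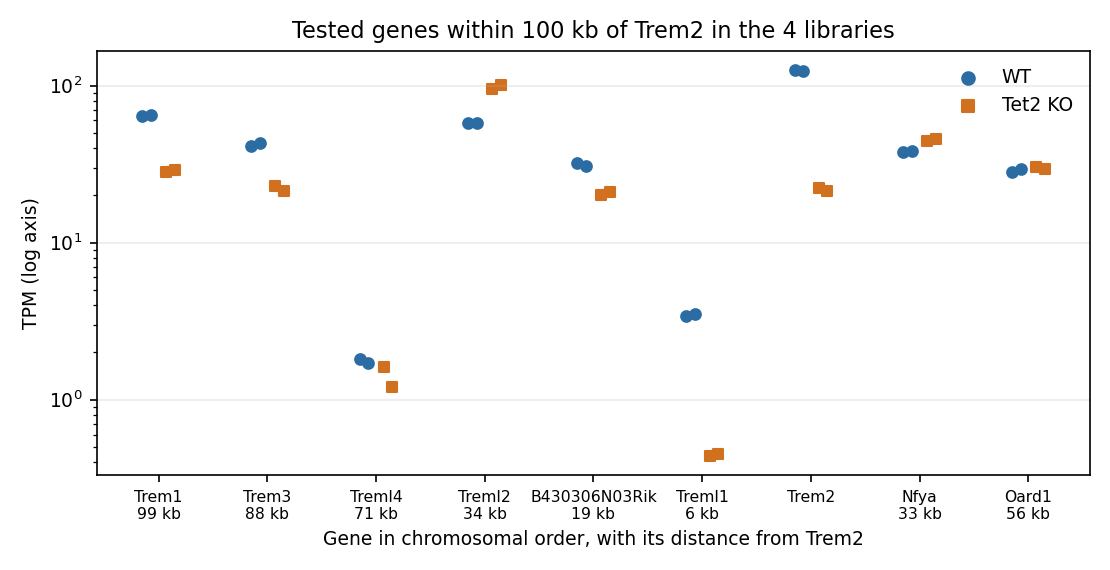
TPM (log axis) of Trem2 and the tested genes within 100 kb of it, in chromosomal order, in the WT (circles) and Tet2 KO libraries (squares). Trem1, Trem3, B430306N03Rik, Treml1 and Trem2 are lower and Treml2 is higher in Tet2 KO.

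Apoe was the least abundant member. It read 5.28 and 3.91 TPM in the WT pair, against 8.98 and 9.45 TPM in the Tet2 KO pair. The mean was 4.6 ± 0.969 TPM in WT and 9.21 ± 0.332 TPM in Tet2 KO, 2.01-fold higher. The log2 fold change was 0.88 (SE 0.113), 0.67 on the centred scale, and 0.57 with a pseudocount of 5. Its SE, which limma sets in part from genes of similar level, was the largest of the 7. The WT libraries lay apart at a low level. The apolipoprotein genes next to it, Apoc1, Apoc2 and Apoc4, were under 1 TPM in every library.

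Receptors that handle apolipoprotein E mostly fell, while the lipid exporters went different ways. Of 18 listed partners 12 were tested, and 2 rose and 7 fell (median -0.53), beside 54.4% and 19.5% of all genes. Centred, the list stood at 2 that rose and 9 that fell, with a median of -0.76, beside 33.3% and 34.4%. Lrp1, the gene of a large endocytic receptor, fell from 24.3 ± 0.198 to 12.6 ± 1.14 TPM (limma adjusted p = 1.64e-08), and Scarb1, a receptor gene for high-density lipoprotein, from 83.3 ± 0.573 to 48 ± 0.658 TPM (limma adjusted p = 1.10e-09). Mylip, which encodes a ubiquitin ligase controlled by LXR, rose from 14 ± 0.375 to 24.4 ± 0.0849 TPM (limma adjusted p = 3.39e-08). Among the exporter genes, Abcg1 fell by 0.35 on the log2 scale (limma adjusted p = 8.66e-06) and Abca7 rose by 0.40 (limma adjusted p = 1.71e-05). Abca7 was not called with spike-in scaling (0.11, limma adjusted p = 0.152). Mylip, Abcg1 and Abca7 were named after their values had been seen.

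The genes of the sterol-sensing receptors LXR-alpha and LXR-beta and their target Abca1 gave weaker results. Nr1h3, the gene of the oxysterol receptor LXR-alpha, read 2.15 and 2.01 TPM in the WT pair, against 1.33 and 0.37 TPM in the Tet2 KO pair (limma adjusted p = 0.0297). That call was lost without WT replicate 1 or WT replicate 2 (limma adjusted p = 0.0977 and 0.0776), and over all alternatives its adjusted p ranged from 6.17e-05 to 0.111. Abca1, the cholesterol exporter gene that LXR controls, was at 7.88 ± 0.651 and 6.81 ± 0.361 TPM and did not pass (limma adjusted p = 0.0865). It was called lower on the centred scale (-0.40, limma adjusted p = 0.00337). Nr1h2, the LXR-beta gene (named after its values had been seen), was far more abundant than Nr1h3, at 44.6 ± 1.22 and 47.6 ± 4.32 TPM. It was not called on the deposited (0.09, limma adjusted p = 0.223) or the centred scale (-0.15, limma adjusted p = 0.0538). With spike-in scaling Nr1h2 was called lower (-0.20, limma adjusted p = 0.00894).

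Gpnmb was the member with the smallest difference. It read 984 and 1007 TPM in the WT pair, against 853 and 891 TPM in the Tet2 KO pair, 1.14-fold lower. Its rank among all genes was 152 and 150 in WT and 152 and 147 in Tet2 KO. The log2 fold change was -0.19 (SE 0.0347), -0.44 on the centred scale, and 0.02 after quantile normalization, so that its direction depends on the scaling. In the order of levels it changed places with Lgals3. In WT the order was Spp1, Lgals1, Lgals3, Gpnmb, Lgals9, Trem2 and Apoe, and in Tet2 KO Gpnmb stood above Lgals3, at 1.05 and 1.09 times its level. No 2 neighbours in either order had overlapping values.

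Of the genes that act on or with Gpnmb, more rose than fell on the deposited scale. The falls were those of the MiT-TFE factor Tfec and the syndecan Sdc4. The list held 11 genes, of which 10 were tested. Of these 4 rose and 2 fell (median 0.10), beside 54.4% and 19.5% of all genes. Centred, the list stood at 4 that rose and 4 that fell, with a median of -0.10, beside 33.3% and 34.4%. Tfec, a MiT-TFE gene of macrophages, read 74.5 and 76.2 TPM in the WT pair, against 29.1 and 28.7 TPM in the Tet2 KO pair, and fell by 1.35 on the log2 scale (limma adjusted p = 2.51e-12). Mitf, the founding member of that family, was at 13.8 ± 1.22 and 15.6 ± 0.962 TPM (limma adjusted p = 0.0665). It was called without WT replicate 2 or Tet2 KO replicate 2 (limma adjusted p = 0.0377 and 0.0373), and its adjusted p ranged up to 0.526. Sdc4, a heparan sulphate proteoglycan that binds Gpnmb on T cells, fell from 10.9 ± 0.311 to 2.7 ± 0.247 TPM (limma adjusted p = 2.05e-10). Flcn, the folliculin gene, whose product controls the lysosomal exit of TFEB and TFE3, rose from 31.2 ± 0.53 to 51.9 ± 3.13 TPM (limma adjusted p = 1.99e-08). The MiT-TFE genes Tfeb and Tfe3, named after their values had been seen, were not called (limma adjusted p = 0.706 and 0.554). Tfeb was at 23.1 and 22.6 TPM and Tfe3 at 38.1 and 37 TPM in WT and Tet2 KO. Both were called lower on the centred scale (-0.26 and -0.28, limma adjusted p = 0.0027 and 0.00283).

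The companion genes of scar and lipid-associated macrophages mostly fell. Of 34 listed genes 31 were tested, and 23 fell and 7 rose, beside 19.5% and 54.4% of all genes. Their median log2 fold change was -0.92, against 0.23 for all genes. Centred, the list stood at 24 that fell and 4 that rose, with a median of -1.16, beside 34.4% and 33.3%. This list was drawn up with the falls of Lpl, Itgax, Ctss and others already known, so its direction is not independent evidence. Beside these falls, Kit stood 17.4-fold and Csf3r 1.57-fold higher and Itgam 1.71-fold and Spi1 1.34-fold lower in Tet2 KO. Cd34 stood 1.06-fold higher, but lower on the centred scale (-0.16, limma adjusted p = 0.00412). Of the 9 myeloid leukaemia markers tested, 7 were called higher and 2 lower, and 5 and 3 on the centred scale. The part of these markers was not tested. Lpl, the lipoprotein lipase gene, read 459 and 482 TPM in the WT pair, against 32.7 and 32.1 TPM in the Tet2 KO pair, 14.5-fold lower (limma adjusted p = 2.45e-18). Mmp12, the macrophage elastase gene, read 1265 and 1288 TPM in the WT pair, against 262 and 250 TPM in the Tet2 KO pair, 4.99-fold lower (limma adjusted p = 3.31e-17). Itgax, which encodes CD11c, fell from 86.4 ± 0.0919 to 10.4 ± 1.12 TPM (limma adjusted p = 7.11e-15).

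Fabp5, a fatty acid binding protein gene, fell from 313 ± 10 to 80.3 ± 0.0919 TPM (limma adjusted p = 1.82e-15). The tetraspanin genes Cd9 and Cd63 went apart. Cd9 fell from 1130 ± 3.56 to 598 ± 3.74 TPM and Cd63 rose from 1318 ± 63.1 to 1808 ± 16.6 TPM (limma adjusted p = 5.47e-13 and 7.83e-09), and both kept their direction on the centred scale (-1.16 and 0.21). Vegfa, the angiogenic growth factor gene, had the largest rise of the list, from 7.65 ± 0.297 to 38.7 ± 0.141 TPM (limma adjusted p = 9.52e-14), and was named after its values had been seen. The fibronectin gene Fn1, the growth factor gene Pdgfb and the scavenger receptor gene Cd36 were under 1 TPM in every library.

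**Figure D4:**
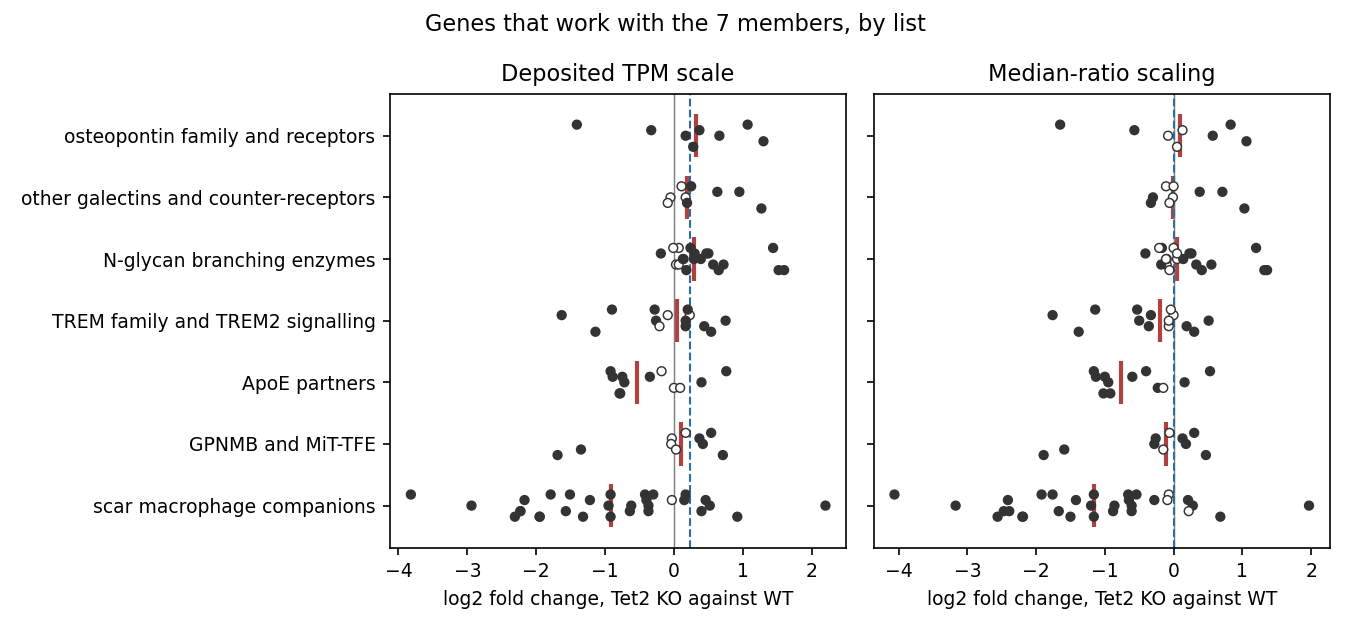
log2 fold change of Tet2 KO against WT for each tested gene of the 7 lists, on the deposited TPM scale (left) and after median-ratio scaling (right). Filled points passed limma at an adjusted p under 0.05, open points did not, red bars are list medians and the dashed line is the median of all genes. The scar macrophage companions and the ApoE partners have their medians below 0 on both scales, at -0.92 and -0.53 on the left.

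For each member the genes with the most similar profile were sought among 9060 genes averaging at least 5 TPM, by the root mean square distance of centred log2(TPM + 1) over the 4 libraries. With 4 libraries in 2 tight groups this finds genes of the same fold change and is only a description. The nearest genes to Trem2 were Wfdc17 (distance 0.0343), Slc7a2 and Mmp12, with Wfdc17 at 695 TPM in WT and 119 TPM in Tet2 KO. Those nearest to Spp1 were Idi1 (0.00922), Tfrc and Id2, to Lgals3 Hp (0.0148), Hdc and Mospd3, and to Lgals1 S100a13 (0.00718), Tomm40 and Emc7. For Lgals9 they were Gltscr2 (0.00577), Rbbp8 and Atg16l2, for Gpnmb Apobr (0.00382), Nckap1l and Atxn10, and for Apoe Ccpg1os (0.0379), Ltb and Thap3. Trem2 and Apoe, with distances of 0.0343 and 0.0379 to their nearest gene, had the least close matches.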

How the data were processed

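Per the labels' protocols, QIAzol was used to extract RNA and a KAPA stranded kit to prepare mRNA libraries. The submitters' processing notes name STAR, RSEM and mm10. Versions, annotation and strand setting were not given in the sources used here. Deposited was 1 TPM table, made by the authors, of 24589 rows and 4 libraries. Each library sums to the same total, so abundant RNAs and spike-ins affect every other value. The 92 ERCC rows were left out of the tests.

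Groups were compared with limma 3.58.1 (statmod 1.5.0, R 4.3.3) on log2(TPM + 1), with trend and robust estimation, for genes with 2 or more libraries at 1 TPM or above. Adjusted p-values are Benjamini-Hochberg over 11452 genes, two-sided, threshold 0.05. In a simulation with normal noise (11452 genes), 69 of 100 genes changed by 0.5 (log2) and 100 of 100 changed by 1 were recovered, with 12 false calls. There rises and falls were balanced and all other genes were unchanged. In these data 54.4% of genes were called higher and 19.5% lower. The simulation thus checks the fit and does not give the recovery or false calls of this comparison. The members and lists were chosen with earlier results of these data known. Named genes were the members, 26 genes with a direct role beside one, the 3 largest called changes of each list with at least 5 TPM, and the most similar genes; others are marked. A gene that this rule names is not reported here. Alternatives were a replicate block, pseudocounts, filters, scalings, no trend and leaving out each library. Figures used matplotlib 3.10.9 in Python 3.11.15.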

Additional observations from a re-analysis of the deposited data

How the results depend on the processing

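The cause of the changes below was not tested, except that median-ratio and spike-in scaling shift all genes of a library by a common factor by construction, which quantile normalization does not. With median-ratio, quantile and spike-in scaling, the genes called higher over the whole table numbered 3815, 3915 and 3394 in place of 6225, and those called lower 3936, 3741 and 4324 in place of 2238. With median-ratio and spike-in scaling alike, the higher genes became 3 in the osteopontin family and receptors, 3 in the other galectins and counter-receptors, 3 in the TREM family and 4 in the scar macrophage companions. They became 9 and 8 in the N-glycan list, and with spike-in scaling 1 among the ApoE partners. The lower genes became 2 in the other galectins with both scalings, 3, 2 and 5 in the N-glycan list with median-ratio, quantile and spike-in scaling, 8 in the TREM family with spike-in scaling, and 4 in the GPNMB list with all 3. Gpnmb turned to 0.02 and Spp1 moved to -0.48 with quantile normalization. Lgals1 moved to -0.81 and Lgals9 to 0.42 with spike-in scaling. Itgb1 turned to -0.08 with median-ratio and -0.13 with spike-in scaling, Lgals3bp to -0.06 and -0.10, and Adgre1 to -0.15 and -0.20. Spike-in scaling turned Ptprc to -0.05 and Nfya to -0.04. Oard1 turned to -0.18 with median-ratio and quantile scaling and -0.23 with spike-in scaling, and Lamp1 to 0.15 with quantile normalization. The other 6 members kept their direction under all 13 alternatives.

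Replicates numbered alike deviated with a correlation of -0.0733 over 7943 genes, so the numbers are not shown to pair libraries. With a replicate block 6179 genes were higher and 2211 lower, and in the N-glycan list 0 in place of 1 were lower. With it Hcst was called (0.23, limma adjusted p = 0.0411) and Adgre1 was not (0.09, limma adjusted p = 0.0849). Leaving out each library gave 0 to 2 lower genes among the other galectins, 2 only without Tet2 KO replicate 1, and 0 to 1 in the N-glycan list. There the 1 lower gene, St3gal3 (named after its values had been seen), remained called only without Tet2 KO replicate 2. A lone library is assumed to vary like the other group. TPM keep no depth, so low values such as those of Apoe, Nr1h3 and Itga9 carry an unknown counting error.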
